A study of Homo sapiens with 9 samples.

Results

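The ERBB receptors and their ligands were represented by 10 of the 31558 genes in the deposited table, found by their symbols. They were the receptors EGFR, ERBB2 and ERBB3, the 6 ligands AREG, EREG, TGFA, HBEGF, BTC and EPGN, and the intracellular inhibitor ERRFI1. All 10 were listed, and all 10 were tested in every comparison. The RNA came from HCT116, a human colorectal cancer cell line. For this experiment the paper writes of transfected cells, and whether each group was 1 stable line is not clear from it. The study's methods describe a lentiviral vector with GFP and puromycin resistance for the expression of CRLM1, but they do not tie its use or the selection to these samples. Cells of the CRLM1-OE group overexpressed the lncRNA CRLM1 (LINC01767), those of the Ctrl group carried the free plasmid, and those of the Anti group carried a plasmid with the antisense sequence of CRLM1 (antisense-OE). Each group held 3 biological replicates. The labels give no further treatment and no time, and they do not state whether the cells of a group were grown from a single clone.

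EGFR and its relatives are cell surface tyrosine kinases that pair up once a ligand is bound and pass a growth signal to the RAS and PI3K pathways. ERBB2 has no known ligand and acts as the partner of the other receptors, while ERBB3 binds neuregulins and has a weak kinase. The ligands are made as membrane-anchored precursors, and proteases such as ADAM17 shed the active part. AREG and EREG are known in colorectal cancer as ligands whose transcript levels are read together with the response to antibodies against EGFR. ERRFI1 (MIG6) binds the kinase domain of EGFR and ERBB2 and dampens their signal as feedback.

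Total counts per sample ranged from 33302292 to 44514692. CRLM1 held 0 counts in Ctrl, 32751 to 38704 in CRLM1-OE and 1540 to 1951 in Anti, where sense and antisense reads cannot be told apart because the use of strand in counting was not stated. Of 8 epithelial markers, 6 reached at least 1 FPKM in every sample, while VIL1 and CDH17 had at most 10 and 11 counts. The summed level of the 8 lay between 4572 and 5558 FPKM. Of 9 markers of leukocytes, endothelium, fibroblasts and hepatocytes, 7 had at most 10 counts in every sample, and their summed level was between 1.20 and 2.53 FPKM, most of it COL1A1, while CD3E was not listed. Some markers moved with the groups. COL1A1 had 2.02 to 2.48 FPKM in CRLM1-OE, against 1.15 to 1.25 in Ctrl and 1.25 to 1.38 in Anti. KRT18 had 424 to 428 FPKM in CRLM1-OE, against 777 to 790 in Ctrl and 810 to 839 in Anti. KRT19 was lowest in Anti, with 2270 to 2346 FPKM, against 3197 to 3257 in Ctrl and 3045 to 3148 in CRLM1-OE. The part of these shifts in the results was not tested. Replicates of a group differed by more than counting noise, with a chi-square per degree of freedom between 2.10 and 4.24 for the 9 pairs.

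Levels are given in FPKM, the fragments on a gene scaled by its exon length and by the mapped fragments of the sample, so that genes can be set against each other. Differences between groups are log2 fold changes of the counts after TMM scaling (edgeR), which corrects for the composition of each library, and their p values come from edgeR's quasi-likelihood test with Benjamini-Hochberg adjustment over all genes tested. A gene was called where the fold change was at least 2 in either direction and the adjusted p at most 0.05. The scaling mattered for small differences. Over the genes whose mean count reached 50, the median log2 fold change of CRLM1-OE against Ctrl was -0.035 with TMM and 0.11 with total counts, that of Anti against Ctrl was -0.0023 and 0.10, and that of CRLM1-OE against Anti was -0.031 and 0.028. FPKM values are scaled without TMM and carry a shift in the same direction. On log2(FPKM + 0.1) the medians of these comparisons were smaller, at 0.076, 0.086 and 0.015 in the same order. These are bulk RNA samples, in which fewer cells making a transcript and less transcript per cell cannot be told apart.

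Of the ligands, 4 lie in a cluster on chromosome 4 of GRCh38 (GENCODE 44) that spans 486054 bp, from 74308470 to 74794523. EPGN (ENSG00000182585, 74308470 to 74316789, forward strand) comes first, and 48355 bp separate it from EREG (ENSG00000124882, 74365145 to 74388749, forward strand). A gap of 56386 bp follows before AREG (ENSG00000109321, 74445136 to 74455005, forward strand), and 289753 bp lie between AREG and BTC (ENSG00000174808, 74744759 to 74794523, reverse strand). HBEGF (ENSG00000113070) lies on chromosome 5 from 140332843 to 140346603 on the reverse strand, and TGFA (ENSG00000163235) on chromosome 2 from 70447284 to 70554193 on the reverse strand. RefSeq gave a promoter for 9 of the 10 genes, 11 promoters in all. The 250 bases upstream of the start of transcription are printed for EREG and BTC, the ligands with the widest differences between groups once EPGN is left out for its low counts, for AREG, which lies between them and moved less, and for HBEGF, which moved the other way. Capitals mark the motifs, which were searched on both strands. The letters TATAAA stood for a TATA box, TGACGTCA for the site of cyclic AMP response factors, TGACTCA for the site of the FOS and JUN factors, GGGCGG for the box bound by SP factors, and CCCTCCC for the C-rich elements that hnRNPK, the protein partner of CRLM1 in the study, is known to bind.
EREG: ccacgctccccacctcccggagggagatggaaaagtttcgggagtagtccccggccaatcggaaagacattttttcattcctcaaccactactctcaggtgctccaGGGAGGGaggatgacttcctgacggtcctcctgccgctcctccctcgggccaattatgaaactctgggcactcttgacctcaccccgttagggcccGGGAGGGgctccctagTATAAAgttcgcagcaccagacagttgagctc
AREG: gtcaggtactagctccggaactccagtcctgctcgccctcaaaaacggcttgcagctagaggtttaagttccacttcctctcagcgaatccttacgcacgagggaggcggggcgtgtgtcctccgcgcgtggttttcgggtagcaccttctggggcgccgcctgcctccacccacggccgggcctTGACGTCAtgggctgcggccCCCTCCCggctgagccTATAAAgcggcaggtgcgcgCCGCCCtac
BTC: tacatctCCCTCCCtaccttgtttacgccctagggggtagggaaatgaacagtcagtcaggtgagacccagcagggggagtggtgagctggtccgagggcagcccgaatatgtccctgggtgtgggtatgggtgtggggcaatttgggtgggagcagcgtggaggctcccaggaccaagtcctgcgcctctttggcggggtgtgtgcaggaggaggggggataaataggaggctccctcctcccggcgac
HBEGF: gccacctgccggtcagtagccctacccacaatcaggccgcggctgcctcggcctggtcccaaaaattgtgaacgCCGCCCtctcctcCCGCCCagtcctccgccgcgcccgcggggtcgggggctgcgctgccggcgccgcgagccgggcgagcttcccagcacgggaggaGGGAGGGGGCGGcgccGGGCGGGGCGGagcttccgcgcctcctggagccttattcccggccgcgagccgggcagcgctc
These are 5′ to 3′ on the strand of the gene, from GRCh38.p14, at chr4:74364895-74365144 (EREG, forward), chr4:74444886-74445135 (AREG, forward), chr4:74794524-74794773 (BTC, reverse) and chr5:140346604-140346853 (HBEGF, reverse). EREG, AREG and EPGN each held TATAAA on the forward strand, at 32, 29 and 29 bases before the start. On either strand and at any place, the motif was found in 10.7% of 35116 promoter windows of the same length. It was not confined to these ligands, since a second promoter of EGFR held it at 146 and 36 bases before the start. AREG also held TGACGTCA at 65 bases before the start, which 1.65% of all windows held. CCCTCCC or its complement stood at 144 and 48 bases before the start of EREG, at 45 bases before that of AREG, at 243 bases before that of BTC and at 79 bases before that of HBEGF, and in 24.7% of all windows. The letters GGGCGG or their complement occurred at 5 places in HBEGF, with 1 base shared between neighbouring motifs in 2 cases, at 1 place in AREG and nowhere in EREG and BTC, and 42.6% of all windows held them. TGACTCA was in none of the windows printed, while the second promoter of EGFR held it or its complement at 232 and 136 bases before the start, and 4.20% of all windows did. The windows were 58.0% (EREG), 65.2% (AREG), 62.0% (BTC) and 76.4% (HBEGF) G or C, with a median of 58.0% over all windows. These matches describe letters and are not evidence of binding.

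EREG and BTC differed most between the groups among the 9 genes other than EPGN, whose fitted differences between Anti and the other groups were larger but rest on 18 counts or fewer in each sample. EREG, which encodes epiregulin, a ligand of EGFR and ERBB4, had 21.29, 19.83 and 20.26 FPKM in CRLM1-OE, 34.92, 34.24 and 31.61 in the Ctrl samples and 52.67, 55.33 and 53.00 in Anti. All CRLM1-OE samples lay below all Ctrl samples, and all Ctrl samples below all Anti samples. The means were 20.5 ± 0.750, 33.6 ± 1.75 and 53.7 ± 1.45 FPKM (SD, n = 3 each). On the log2 scale EREG fell by 0.83 (SE 0.029, adjusted p = 9.6e-182) in CRLM1-OE against Ctrl, a 1.78-fold lower count. Against Anti it fell by 1.44 (SE 0.024, adjusted p = 1e-300), which is 2.70-fold lower and past the calling threshold. Anti stood above Ctrl by 0.58 (SE 0.025, adjusted p = 6.3e-117). The Anti group therefore moved away from Ctrl in the direction opposite to CRLM1-OE.

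BTC encodes betacellulin, which also binds EGFR and ERBB4, and was read at a far lower level. It had 34, 30 and 29 counts in CRLM1-OE (0.25, 0.28 and 0.24 FPKM), 58, 45 and 47 in Ctrl (0.41, 0.39 and 0.42 FPKM) and 70, 84 and 84 in Anti (0.55, 0.70 and 0.75 FPKM). The order of the groups was that of EREG, with no overlap. BTC fell by 0.79 (SE 0.23, 95% interval -1.25 to -0.34, adjusted p = 0.0028) against Ctrl and by 1.42 (SE 0.21, interval -1.83 to -1.01, adjusted p = 7.0e-11) against Anti, where it was called. Anti exceeded Ctrl by 0.60 (SE 0.19, adjusted p = 0.0077), and without Anti replicate 3 by 0.52 (adjusted p = 0.057). With at most 84 counts in a sample, the intervals of BTC were wide beside those of EREG.

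AREG encodes amphiregulin, a ligand of EGFR alone, and was by far the most abundant ligand. Its level was 234.30, 241.23 and 230.57 FPKM in CRLM1-OE, 251.67, 252.27 and 243.04 in Ctrl cells and 269.80, 274.35 and 276.72 in Anti. The groups kept the order of EREG and did not overlap, but the steps were small beside the level. AREG fell by 0.20 (SE 0.023, adjusted p = 3.6e-16) against Ctrl and by 0.26 (SE 0.020, adjusted p = 9.7e-37) against Anti. The first of these differences shrank to -0.055 (adjusted p = 0.055) with total counts in place of TMM. Between Anti and Ctrl it was 0.044 (interval -1.3e-06 to 0.089, adjusted p = 0.17), 0.15 (adjusted p = 1.9e-10) with total counts and 0.065 (adjusted p = 0.043) without Ctrl replicate 2.

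**Figure D1:**
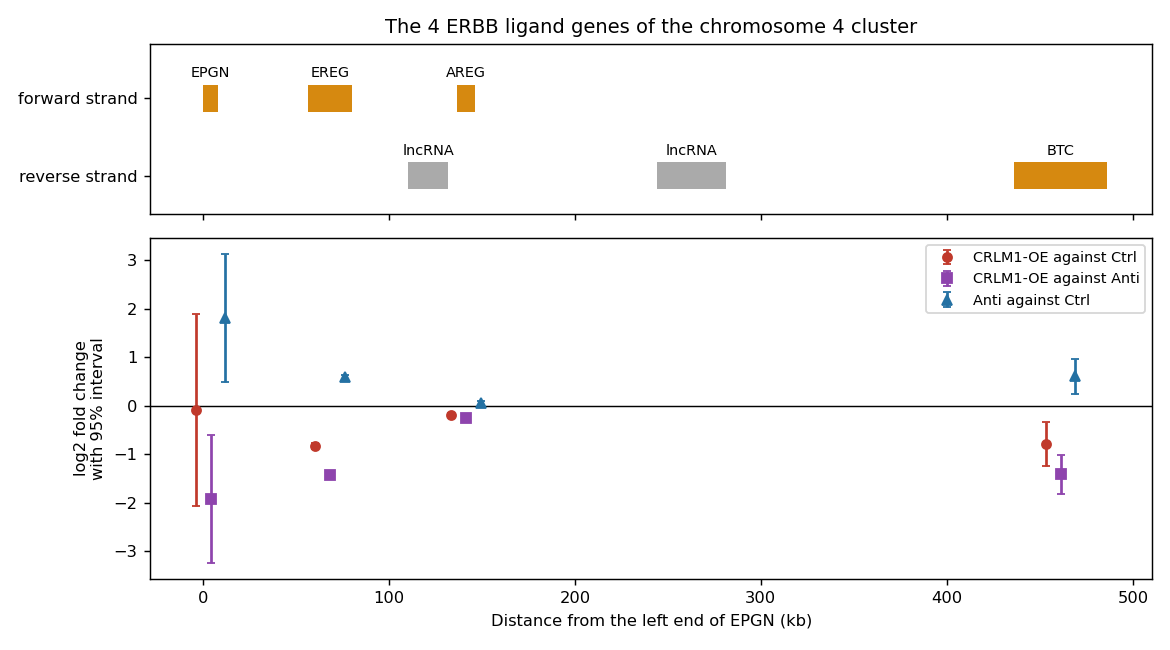
Map of the 4 ligand genes of the chromosome 4 cluster and the 2 lncRNA genes between them, by strand (upper panel), and the log2 fold change of each ligand with its 95% interval in the 3 comparisons (lower panel), against distance from the left end of EPGN in kb. EREG and BTC sit at -0.83 and -0.79 in CRLM1-OE against Ctrl, AREG between them at -0.20, and the intervals of EPGN are the widest.

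EPGN encodes epigen, a low-affinity ligand of EGFR, and was at the edge of detection. It had 0, 2 and 5 counts in CRLM1-OE, 3, 0 and 4 in the Ctrl samples and 18, 4 and 5 in Anti. Only Anti replicate 1 stood clearly above 5 counts, and the groups overlapped. Its call as lower in CRLM1-OE than in Anti (log2 fold change -1.93, SE 0.68, adjusted p = 0.014) became -1.02 (adjusted p = 0.51) without that library and -1.31 (adjusted p = 0.15) without CRLM1-OE replicate 1. The call as higher in Anti than in Ctrl (1.81, SE 0.68, adjusted p = 0.034) became 0.90 (adjusted p = 0.62) without Anti replicate 1, 1.91 (adjusted p = 0.064) without Ctrl replicate 1 and 1.30 (adjusted p = 0.21) without Ctrl replicate 2. CRLM1-OE and Ctrl held 7 counts each in sum, and no difference was detectable at this depth. The annotation places 2 further genes inside the cluster, both lncRNAs on the reverse strand, and both were in the table. ENSG00000250532, between EREG and AREG, had 0 or 1 count in each sample, and ENSG00000249942, between AREG and BTC, had 8 to 21 counts, so that of the 6 genes of the interval only EREG and AREG were read at depth.

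HBEGF and TGFA lie outside the cluster. HBEGF encodes heparin-binding EGF-like growth factor, a ligand of EGFR and ERBB4, and had 23.84, 22.32 and 22.03 FPKM in CRLM1-OE, 15.63, 15.33 and 14.82 in Ctrl cells and 16.72, 16.30 and 16.33 in Anti. The CRLM1-OE samples lay above all 6 others. HBEGF rose by 0.46 (SE 0.040, adjusted p = 3.5e-29) against Ctrl and by 0.42 (SE 0.038, adjusted p = 4.6e-27) against Anti, while Anti and Ctrl differed by 0.017 (interval -0.067 to 0.10, adjusted p = 0.83), or by 0.12 (adjusted p = 0.020) with total counts. It was the only ligand that was higher in CRLM1-OE than in both other groups by this test.

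TGFA encodes transforming growth factor alpha, a ligand of EGFR, and had 31.28, 32.05 and 31.49 FPKM in CRLM1-OE, 29.31, 28.50 and 27.84 in the Ctrl samples and 31.64, 32.38 and 31.80 in Anti. In FPKM the Ctrl samples were the lowest, and the other groups overlapped. After TMM scaling, CRLM1-OE and Ctrl differed by 0.031 (interval -0.022 to 0.085, adjusted p = 0.45), and by 0.17 (adjusted p = 2.3e-09) with total counts. The difference of CRLM1-OE against Anti was -0.061 (SE 0.025, adjusted p = 0.037) and lost the threshold without CRLM1-OE replicate 1 (-0.057, adjusted p = 0.093), CRLM1-OE replicate 3 (-0.051, adjusted p = 0.14) or Anti replicate 2 (-0.040, adjusted p = 0.32). That of Anti against Ctrl was 0.070 (SE 0.027, adjusted p = 0.041) and lost it without Ctrl replicate 3 (0.061, adjusted p = 0.11), Anti replicate 1 (0.075, adjusted p = 0.078) or Anti replicate 2 (0.056, adjusted p = 0.23). TGFA had 5274 counts or more in every sample.

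**Figure D2:**
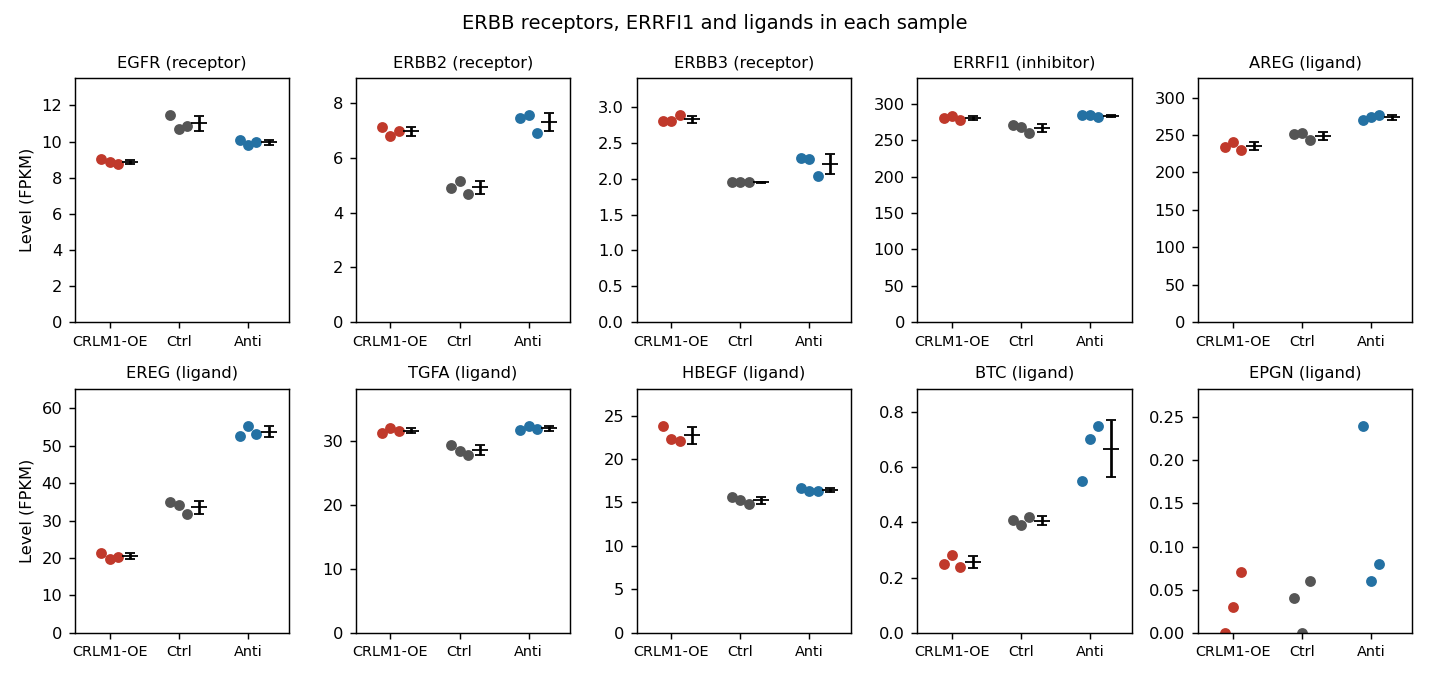
Level in FPKM of the 10 genes in each sample, with CRLM1-OE in red, Ctrl in grey and Anti in blue. Points are replicates, and the bar beside them is the mean with its SD (n = 3), left out for EPGN, whose counts were 18 at most. EREG, BTC and AREG step upward from CRLM1-OE to Ctrl to Anti, and HBEGF and ERBB3 are highest in CRLM1-OE.

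The receptors moved in different directions. EGFR (ENSG00000146648, chromosome 7 from 55019017 to 55211628, forward strand, 28 exons in the canonical transcript) had 9.01, 8.85 and 8.77 FPKM in CRLM1-OE, 11.47, 10.68 and 10.88 in Ctrl cells and 10.08, 9.82 and 9.98 in Anti. CRLM1-OE was lowest and Ctrl highest, without overlap. EGFR fell by 0.43 (SE 0.029, interval -0.48 to -0.37, adjusted p = 2.0e-47) in CRLM1-OE against Ctrl, by 0.21 (SE 0.027, adjusted p = 4.1e-14) against Anti, and by 0.24 (SE 0.028, adjusted p = 8.9e-16) in Anti against Ctrl. Both plasmids with CRLM1 sequence were thus below the free plasmid.

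ERBB2 (ENSG00000141736, chromosome 17 from 39687914 to 39730426, forward strand, 27 exons) had 7.12, 6.80 and 7.00 FPKM in CRLM1-OE, 4.91, 5.16 and 4.69 in the Ctrl samples and 7.45, 7.57 and 6.92 in Anti. Ctrl lay below all other samples, and CRLM1-OE and Anti overlapped in FPKM. ERBB2 rose by 0.39 (SE 0.045, adjusted p = 6.8e-17) in CRLM1-OE and by 0.48 (SE 0.044, adjusted p = 1.2e-25) in Anti, each against Ctrl, and these comparisons share the Ctrl samples. Between CRLM1-OE and Anti it differed by -0.11 (SE 0.041, adjusted p = 0.015). That difference did not pass the threshold without CRLM1-OE replicate 2 (-0.095, adjusted p = 0.096), Anti replicate 1 (-0.11, adjusted p = 0.053) or Anti replicate 2 (-0.079, adjusted p = 0.20), nor with total counts (-0.055, adjusted p = 0.34). MIEN1, on the opposite strand, overlaps the ERBB2 locus and had 1786 to 2839 counts, and PGAP3, also opposite, had 153 to 297, so that reads in the shared stretches cannot be assigned without strand.

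ERBB3 (ENSG00000065361, chromosome 12 from 56076799 to 56103505, forward strand, 28 exons) had 2.81, 2.80 and 2.89 FPKM in CRLM1-OE, 1.95, 1.96 and 1.95 in Ctrl cells and 2.29, 2.28 and 2.04 in Anti. The CRLM1-OE samples were above all others. ERBB3 rose by 0.42 (SE 0.061, adjusted p = 3.8e-11) against Ctrl and by 0.31 (SE 0.058, adjusted p = 5.5e-07) against Anti, and Anti differed from Ctrl by 0.086 (interval -0.040 to 0.21, adjusted p = 0.43), or by 0.19 (adjusted p = 0.015) with total counts. A protein-coding entry on the same strand, ENSG00000257411, overlaps ERBB3 in the annotation and had 3702 to 5680 counts, so the share of reads that each received depends on the counting. Of the antisense RNAs, EGFR-AS1 had 10 to 21 counts, against 3959 or more for EGFR.

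ERRFI1 (ENSG00000116285, chromosome 1 from 8004404 to 8026309, reverse strand) was the most abundant of the 10 genes. It had 281.24, 283.41 and 278.02 FPKM in CRLM1-OE, 271.78, 268.21 and 260.35 in the Ctrl samples and 284.35, 284.97 and 282.20 in Anti. After TMM scaling the difference of CRLM1-OE against Ctrl was -0.040 (interval -0.076 to -0.0048, adjusted p = 0.078), and it was 0.10 (adjusted p = 1.2e-07) with total counts, so its direction rests on the scaling. Against Anti it was -0.061 (SE 0.015, adjusted p = 3.6e-04), and -0.0019 (adjusted p = 0.95) with total counts. Anti and Ctrl differed by -0.0021 (interval -0.038 to 0.033, adjusted p = 0.98) with TMM and by 0.10 with total counts. With at least 42869 counts in each sample these intervals were narrow.

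**Figure D3:**
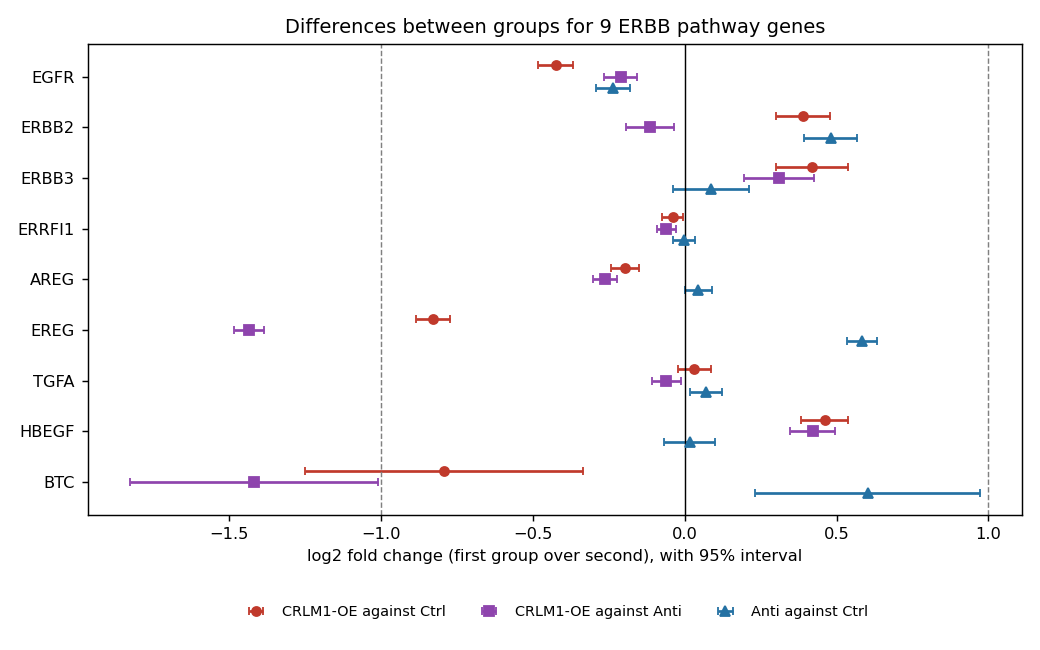
log2 fold change with its 95% interval for 9 of the genes (EPGN left out for its low counts) in CRLM1-OE against Ctrl (circles), CRLM1-OE against Anti (squares) and Anti against Ctrl (triangles), with dashed lines at a fold change of 2 in either direction. EREG at -1.44 and BTC at -1.42 in CRLM1-OE against Anti pass a dashed line, and the 3 intervals of ERRFI1 lie close to 0.

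Counted over the 10 genes, 3 were higher in CRLM1-OE than in Ctrl at an adjusted p of at most 0.05 (ERBB2, ERBB3 and HBEGF), 4 were lower (EGFR, AREG, EREG and BTC) and 3 did not pass. Of all 29846 genes tested, 15.0% were higher and 16.8% lower by the same rule. None of the 10 was called, against 2.50% of all genes called higher and 0.915% called lower. In CRLM1-OE against Anti, 2 were higher (ERBB3 and HBEGF) and 8 lower, against 17.1% and 18.5% of 30183 genes, and the 3 called were all lower (EREG, BTC and EPGN), against 3.09% called higher and 2.56% called lower. In Anti against Ctrl, 5 were higher, 1 was lower (EGFR) and 4 did not pass, against 11.5% and 12.2% of 29714 genes, and EPGN alone was called, as higher, against 0.683% called higher and 0.380% called lower. The median log2 fold change of the 10 genes was -0.064, -0.16 and 0.078 in the 3 comparisons. Of the genes whose mean count reached 50, 28.9% were higher and 36.5% lower for CRLM1-OE against Ctrl, 33.3% and 38.7% against Anti, and 24.2% and 26.9% in Anti against Ctrl. Well-read genes pass such a test at small differences, as AREG did here at -0.20 against Ctrl and ERRFI1 at -0.061 against Anti, and the share of members that passed is to be read with that in view. With EPGN left out for its low counts, the range of the group means on the log2 scale was 1.44 for EREG and 1.39 for BTC, 0.51 for ERBB2, 0.46 for HBEGF, 0.43 for EGFR, 0.42 for ERBB3, 0.27 for AREG, 0.096 for TGFA and 0.064 for ERRFI1.

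The order of the levels changed only in the place of EREG. In Ctrl and in Anti, ERRFI1 was highest, followed by AREG, EREG, TGFA, HBEGF, EGFR, ERBB2, ERBB3, BTC and EPGN. In CRLM1-OE, EREG stood after TGFA and HBEGF. Neighbours in these orders did not overlap in their FPKM over the 3 samples of a group.

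Summed over the 6 ligands, the level was 310 ± 5.56 FPKM in CRLM1-OE, 327 ± 7.86 in Ctrl cells and 376 ± 4.21 in Anti (SD, n = 3 each). The difference of CRLM1-OE was -16.4 FPKM against Ctrl and -66.0 FPKM against Anti, and that of Anti against Ctrl was 49.6 FPKM. An exact two-sided permutation test gave p = 0.1 for each, the smallest value that 3 samples against 3 allow. With FPKM divided by the TMM factor, a scaling added after the values were seen, the differences were -47.9, -78.9 and 31.0 FPKM, so their sizes depend on the scaling while their directions did not change. AREG made up 75.8%, 76.2% and 72.7% of the sum in CRLM1-OE, Ctrl and Anti. EREG made up 6.59 ± 0.287%, 10.3 ± 0.294% and 14.3 ± 0.307%, HBEGF 7.32%, 4.67% and 4.37%, and TGFA 10.2%, 8.74% and 8.48%. These shares and the ratio of AREG to EREG, which was 11.5 in CRLM1-OE, 7.42 in the Ctrl samples and 5.10 in Anti, do not depend on the scaling of a library. Among the receptors, the ratio of EGFR to ERBB2 in FPKM was 1.27 ± 0.0252 in CRLM1-OE, 2.24 ± 0.149 in Ctrl cells and 1.36 ± 0.0731 in Anti. The exact permutation p was 0.1 for either group against Ctrl and 0.2 between CRLM1-OE and Anti, which overlapped.

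**Figure D4:**
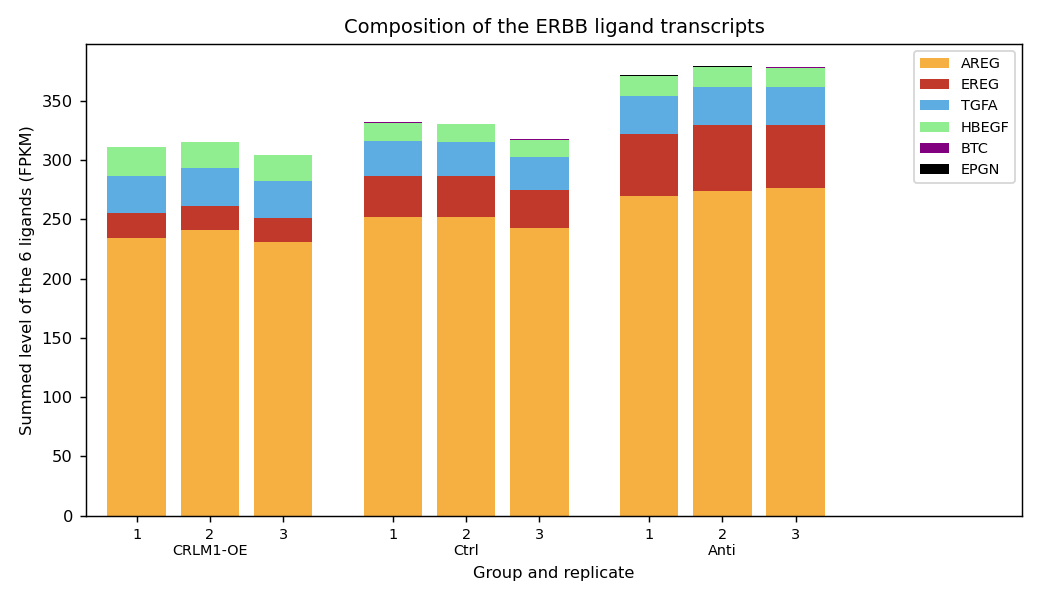
Summed FPKM of the 6 ligands in each sample, by replicate and group, stacked by ligand, with AREG at the base. The EREG layer is thinnest in CRLM1-OE (6.59% of the sum) and thickest in Anti (14.3%), while BTC and EPGN add at most a thin line at the top.

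The other ERBB family genes were read at low levels. ERBB4, the remaining receptor, had 4, 4 and 0 counts in CRLM1-OE, 1, 0 and 1 in the Ctrl samples and 0 in each Anti sample. EGF, the founding ligand, had 4 to 17 counts, and the neuregulin gene NRG4 had 0 to 5. NRG2 had 35 to 78 counts. NRG1, the best known ligand of ERBB3, had 0.257 ± 0.0115 FPKM in CRLM1-OE, 0.163 ± 0.0306 in Ctrl cells and 0.197 ± 0.0153 in Anti. On the log2 scale NRG1 was 0.53 (SE 0.17, adjusted p = 0.0054) higher in CRLM1-OE than in Ctrl, and 0.39 (adjusted p = 0.090) without Ctrl replicate 2. Against Anti the difference was 0.33 (SE 0.16, adjusted p = 0.097) and did not pass. Of the 6 genes listed, NRG3 was not in the table, 1 of the 5 tested was higher in CRLM1-OE than in Ctrl, and none passed in Anti against Ctrl. Of all genes tested, 15.0% were higher and 16.8% lower in CRLM1-OE against Ctrl, and 11.5% and 12.2% in Anti against Ctrl. NRG2, at 0.49 (SE 0.20, adjusted p = 0.040), passed as higher in CRLM1-OE than in Anti. ERBB4, with 8 counts in all of CRLM1-OE and 0 in Anti, was called in that comparison (adjusted p = 0.041). There 17.1% of all genes tested were higher and 3.09% were called higher.

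Among 13 genes of ligand shedding and trafficking, CRLM1-OE had 7 above and 3 below Ctrl by the test, and 5 above and 4 below Anti. Anti had 5 above and 2 below Ctrl, and none of the 13 was called. Over all genes tested, 15.0% were above and 16.8% below Ctrl in CRLM1-OE, 17.1% and 18.5% were so against Anti, and 11.5% and 12.2% in Anti against Ctrl. Over the genes whose mean count reached 50, as it did for 11 of the 13, the shares were 28.9% and 36.5%, 33.3% and 38.7%, and 24.2% and 26.9%. The shares called higher and lower at that depth were 1.85% and 0.758%, 2.42% and 2.90%, and 0.179% and 0.0623%. ADAM17, the main protease that releases AREG, EREG, TGFA and HBEGF, had 7.11 ± 0.145 FPKM in CRLM1-OE, 9.74 ± 0.256 in the Ctrl samples and 12.0 ± 0.590 in Anti, in the group order of EREG. It fell by 0.57 (SE 0.040, adjusted p = 2.8e-43) against Ctrl and by 0.80 (SE 0.037, adjusted p = 2.9e-100) against Anti, and was 0.21 (SE 0.036, adjusted p = 5.8e-08) higher in Anti than in Ctrl. TIMP3, a secreted inhibitor of ADAM17, had 1.43 ± 0.0173, 0.743 ± 0.0709 and 0.763 ± 0.0764 FPKM. It rose by 0.82 (SE 0.11, adjusted p = 5.2e-13) against Ctrl and by 0.86 (SE 0.11, adjusted p = 1.2e-14) against Anti.

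Among 22 genes of receptor-proximal signalling, CRLM1-OE had 6 above and 9 below Ctrl, and 6 above and 11 below Anti, while Anti had 9 above and 3 below Ctrl. All 22 had a mean count of at least 50, and at that depth 28.9% of all genes were above and 36.5% below Ctrl in CRLM1-OE, with 33.3% and 38.7% against Anti and 24.2% and 26.9% in Anti against Ctrl. The only gene called was PLCG1, as higher in CRLM1-OE than in Ctrl, where 2.50% of all genes tested and 1.85% of those at that depth were called higher. PLCG1 is the phospholipase that docks on activated EGFR, and it had 3.51 ± 0.0379 FPKM in CRLM1-OE, 1.47 ± 0.0764 in Ctrl cells and 2.12 ± 0.146 in Anti. It was 1.15 (SE 0.061, adjusted p = 1.3e-76) higher in CRLM1-OE than in Ctrl, a fold change of 2.21, and 0.68 (SE 0.056, adjusted p = 2.2e-33) higher than in Anti. Anti stood 0.44 (SE 0.070, adjusted p = 3.2e-09) above Ctrl. GRB2, the adaptor that links the receptors to RAS, had 46.3 ± 0.552, 27.8 ± 0.563 and 33.9 ± 0.777 FPKM, and was 0.62 (SE 0.027, adjusted p = 4.1e-112) higher than in Ctrl and 0.40 (SE 0.024, adjusted p = 2.7e-61) higher than in Anti. Of the duplicated symbol PIK3R2, only ENSG00000105647 was used.

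Among 24 genes of receptor down-regulation and traffic, CRLM1-OE had 8 above and 9 below Ctrl, and 9 above and 9 below Anti, while Anti had 5 above and 8 below Ctrl. All 24 had a mean count of at least 50, so that the shares of genes at that depth given for the signalling genes apply here too (28.9% above and 36.5% below Ctrl in CRLM1-OE). None of the 24 was called in any comparison. Of all genes at that depth, 1.85% were called higher and 0.758% lower for CRLM1-OE against Ctrl, 2.42% and 2.90% against Anti, and 0.179% and 0.0623% in Anti against Ctrl. SOCS3, a feedback inhibitor of cytokine signals that can also bind EGFR, had 13.9 ± 0.101 FPKM in CRLM1-OE, 8.53 ± 0.487 in the Ctrl samples and 8.66 ± 0.225 in Anti, and rose by 0.59 (SE 0.047, adjusted p = 2.2e-34) and 0.63 (SE 0.046, adjusted p = 1.7e-41) against them. ZFYVE28 (LST2), an endosomal protein that limits EGFR signalling, had 1.86 ± 0.101, 1.10 ± 0.0900 and 1.13 ± 0.0651 FPKM and rose by 0.65 (SE 0.072, adjusted p = 5.7e-18) and 0.68 (SE 0.072, adjusted p = 2.0e-20). Over the 64 tested genes of the 4 lists, 22 were higher, 21 lower and 21 not past the threshold in CRLM1-OE against Ctrl, with 22, 24 and 18 against Anti and 19, 13 and 32 in Anti against Ctrl. Over all genes tested 15.0% were higher and 16.8% lower in the first comparison, 17.1% and 18.5% against Anti, and 11.5% and 12.2% in Anti against Ctrl. Over those whose mean count reached 50 the shares were 28.9% and 36.5%, 33.3% and 38.7%, and 24.2% and 26.9% in the same order. Nothing particular to the lists is read from these counts. Their median log2 fold changes, where the mean count reached 50, were 0.0015, -0.059 and 0.040, beside -0.035, -0.031 and -0.0023 for all genes of that depth.

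**Figure D5:**
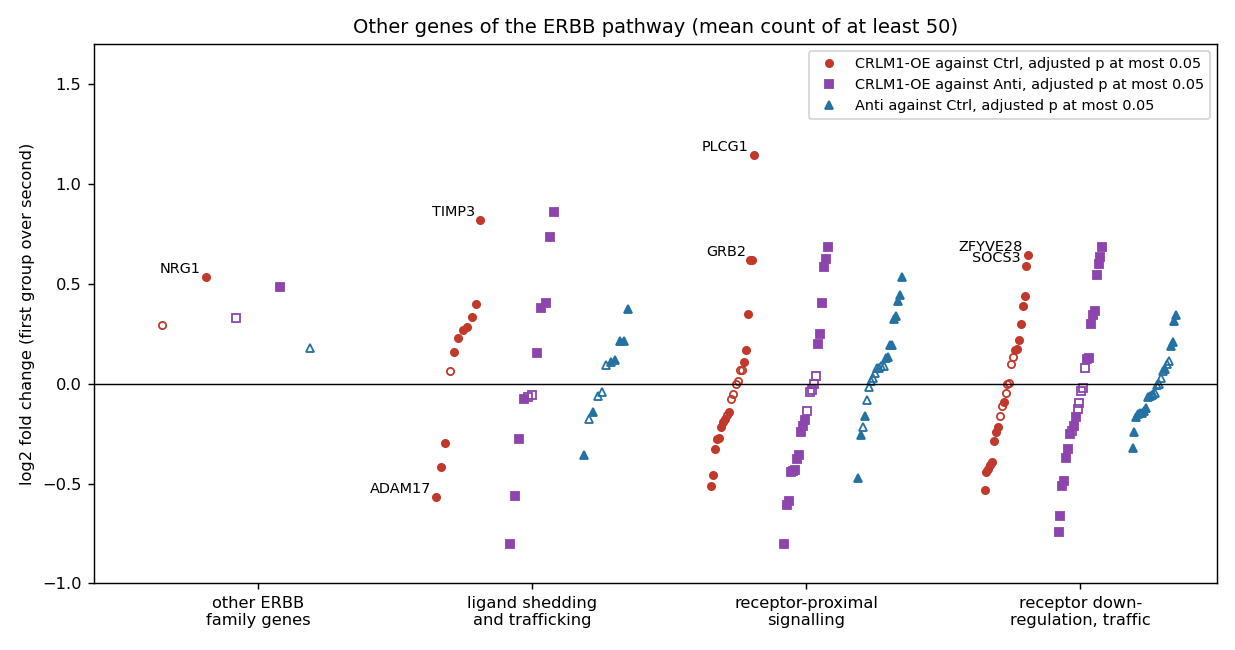
log2 fold change of the other pathway genes whose mean count reached 50, by list and comparison (CRLM1-OE against Ctrl as circles, CRLM1-OE against Anti as squares, Anti against Ctrl as triangles). Filled markers have an adjusted p of at most 0.05 and open ones do not, and PLCG1 at 1.15 is the only gene past 1 in either direction.

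The genes whose levels followed EREG and BTC most closely were sought by Pearson's r of log2 CPM over the 9 samples, among the 12941 genes whose mean count reached 50. The samples form 3 groups of 3, so a high r mainly says that the group means have the same order and relative spacing on the log2 scale. It does not depend on the size of the change, and it is given as a description. For EREG the 5 closest genes included TFDP1 (r = 0.9997), CTPS1 (r = 0.999), DNAL1 (r = 0.998) and CBX5 (r = 0.997), and 1165 genes in all had an r above 0.95. TFDP1, the partner of E2F factors, had 21.5, 27.0 and 35.4 FPKM in CRLM1-OE, Ctrl and Anti, and CBX5, a heterochromatin protein, had 2.33, 3.56 and 5.58. For BTC they were COX20 (r = 0.992), MBTPS1 (r = 0.990), VPS8 (r = 0.989), HAUS6 (r = 0.989) and TRMT61A (r = 0.989), and 638 genes had an r above 0.95. The pattern of EREG was thus shared by many genes outside the ERBB family.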

How the data were processed

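The 9 samples were grouped by their labels. The authors trimmed reads (FASTX, paired-end, 151 nt), dropped those under 16 nt, mapped what was left to GRCh38 by TopHat2 with Gencode 23 and at most 4 mismatches, and deposited raw gene counts, made from reads that mapped to 1 place. The authors also deposited FPKM with 2 decimals, for 31268 of the 31558 genes. The use of strand and the criterion for listing a gene as expressed were not given in the sources used here. Counts were tested with edgeR 4.0.16 in R 4.3.3 (TMM, glmQLFit, glmQLFTest), separately for each pair of groups (6 samples, no covariate), with all genes that had any count in them. The shares of genes past the threshold among those with a mean count of at least 50 were added after the values were seen. An adjusted p smaller than 1e-300 is printed as 1e-300. The fit was tested on simulated data. Ligand sums were compared with exact permutation tests (scipy 1.17.1). Figures were drawn with matplotlib 3.10.9. Reads carry no molecular identifiers, and the p values measure the spread between the samples, whose cultures the labels do not describe further. If the samples of a group came from 1 line, that is the spread within the line, and group and line cannot be told apart. Where replicates share a number, their deviations from the group means correlated between -0.0994 and 0.0855, so the numbers were not taken as pairs.

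The 10 members and the 4 lists were chosen with earlier results of these data known. Named were the members, called list genes whose mean count reached 50, in each list the 2 such genes with the largest difference of CRLM1-OE against Ctrl, and the 5 genes closest to the 2 members with the widest range. A gene among those closest to EREG is not reported here. VIL1, CDH17, COL1A1, KRT18, KRT19, NRG2, the overlapping genes and the rarely read family genes were named after their values were seen. Alternatives were RLE factors, total counts, filterByExpr, at least 10 counts in every sample, DESeq2 1.42.0, limma 3.58.1 on log2(FPKM + 0.1) and log2(FPKM + 1), a block for the replicate number, the removal of each replicate in turn, and 1 fit for all 9 samples.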

Additional observations from a re-analysis of the deposited data

How the results depend on the processing

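Depth limits EPGN and BTC, and the scaling limits ERRFI1, TGFA and AREG. The scaling also limits HBEGF and ERBB3 in Anti against Ctrl, and ERBB2 in CRLM1-OE against Anti. Over the alternatives to the edgeR test and leaving out each replicate, 375 values for the members kept their direction and side of the threshold, 37 lost the threshold, 14 gained it and 16 changed sign. Of the differences that passed at first, those of EGFR and EREG in every comparison and those of HBEGF and ERBB3 against either group kept their side in all alternatives run. The same held for ERBB2 in CRLM1-OE and in Anti against Ctrl, for BTC in CRLM1-OE against either group, and for AREG in CRLM1-OE against Anti. EPGN had no value under filterByExpr and under at least 10 counts in every sample, which test fewer genes by construction, and no adjusted p from DESeq2 in the comparisons with Ctrl.

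With total counts in place of TMM, ERRFI1 changed sign to 0.10 (CRLM1-OE against Ctrl) and 0.10 (Anti against Ctrl), EPGN to 0.048 (CRLM1-OE against Ctrl), and in Anti against Ctrl TIMP3 to 0.042, SOCS3 to 0.037 and ZFYVE28 to 0.045, while 10 members passed the threshold in place of 6. limma on log2(FPKM + 0.1) gave 0.075 for ERRFI1 in CRLM1-OE against Ctrl and, in Anti against Ctrl, 0.090 for ERRFI1, 0.033 for TIMP3, 0.023 for SOCS3 and 0.033 for ZFYVE28. On log2(FPKM + 1) these were 0.074, 0.089, 0.016, 0.021 and 0.019. ERRFI1 in Anti against Ctrl was also above 0 under filterByExpr (0.00074), at least 10 counts (0.0028) and the fit of all 9 samples (0.023). Against Anti, 6 members passed in place of 10 under either limma setting, and with log2(FPKM + 1) 1 was called in place of 3. In Anti against Ctrl, 0 members were called in place of 1 under filterByExpr, at least 10 counts, DESeq2, both limma settings and the replicate block.

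Of all genes, 1018 were called in CRLM1-OE against Ctrl, with 469 at 10 counts or more, 634 with log2(FPKM + 0.1) and 98 with log2(FPKM + 1). Against Anti, 1705 became 901, 1030 and 226. In Anti against Ctrl, 316 became 185 (filterByExpr), 81 (10 counts), 118 (DESeq2), 116 and 4 (limma). The ligand sum without AREG differed by -2.75, -27.8 and 25.0 FPKM. In the first of these comparisons the groups overlapped, at 74.09 to 76.66 FPKM in CRLM1-OE and 74.75 to 80.31 in Ctrl (exact permutation p = 0.2). The sum of all 6 ligands divided by the TMM factor, an alternative added after the data were seen, differed by -47.9, -78.9 and 31.0 FPKM.

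Leaving out each replicate in turn gave 922 to 978, 1557 to 1641 and 248 to 300 called genes in the 3 comparisons. Members called were 0, 2 to 3 and 0 to 1, and members past the threshold 7, 8 to 10 and 4 to 6. The ligand sums differed by -20.9 to -13.5, -68.7 to -63.1 and 45.1 to 52.2 FPKM. The range of EPGN in CRLM1-OE against Ctrl was -1.19 to 0.61, and in Anti against Ctrl ERRFI1 ranged from -0.011 to 0.013, TIMP3 from -0.12 to 0.018 and ZFYVE28 from -0.10 to 0.0073.

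With the replicate number as a block, 865, 1488 and 213 genes were called, ERRFI1 passed in CRLM1-OE against Ctrl (-0.040, adjusted p = 0.031) and EPGN did not in Anti against Ctrl (1.82, adjusted p = 0.082). No pairing by number was detected, as only 1 of 9 samples correlated best with its own number in both other groups. The sources do not state whether samples of the same number were prepared together. The cause of these shifts was not tested.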
